A study of Rattus norvegicus with 18 samples.

Results

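Genes that mark cells other than cardiomyocytes were followed across 6 RNA libraries of cultured neonatal rat ventricular cells. The members were 38 listed markers of macrophages and other leukocytes, endothelial cells, mural cells, epicardial cells, fibroblasts and glia, matched to the table by name, which it spells in capitals (CSF1R, LYZ2, PDGFRB). Of these, 37 were matched among 28909 genes, and Pecam1 was not analysed here. The cells came from ventricles of 1-day-old wild-type SD rats, were plated first so that faster-attaching cells stayed behind, and were then kept on collagen in a low-serum medium. The 3 control libraries had DMSO and the 3 treated libraries 25 µM blebbistatin, a blocker of the myosin II ATPase, each for 0.5 h. The series text also gives a lower dose. The labels call the cells cardiomyocytes, and nothing in them says that libraries of a group came from separate preparations, so p-values measure the spread between these libraries, which may be technical.

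The heart is built from many cell types besides the myocyte. Resident macrophages clear debris and carry complement and lysozyme genes, endothelial cells line vessels and the chambers, pericytes and smooth muscle cells wrap the vessels, the epicardium covers the surface, and fibroblasts make the matrix. Pre-plating exploits the quick attachment of fibroblasts, so what remains of each marker is a customary readout of how pure a myocyte culture is. In RNA from a mixed culture, fewer cells of a type and less RNA per cell cannot be told apart.

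The values were CPM, a gene's reads per fixed total of reads, with depths of 59.6 to 63.3 M reads (M, 1e+06) per library, estimated from the smallest step between values. A floor of 3 reads corresponded to 0.0474 to 0.0503 CPM and covers counting error only. DMSO replicate 1 stood apart: the sum of 72 ribosomal protein genes was 15010 CPM in it against 23160 to 32760 CPM in the other 5 libraries, and the sum of 8 red blood cell genes 185.8 against 60.72 to 70.49 CPM. Of 16 listed cardiomyocyte markers, 14 were measured, with sums of 35660 CPM in that library and 30920 to 32040 CPM in the others, none of them at 0. Much of each sum was Myh7, named after its values were seen, at 19640 CPM in that library and 11150 to 13110 CPM in the others. The sum was highest in DMSO replicate 1 only with Myh7 counted, and without Myh7 it was lowest there. In each library the 14 cardiomyocyte markers took 3.09 to 3.57% of all reads, so the labelled cell type was present throughout.

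Macrophage genes share a myeloid regulator, the factor PU.1, whose core GAGGAA was looked for on both strands (the complement reads TTCCTC) in the 250 bases before each gene's start in RefSeq (build GRCr8, not the build of the files). Of the members, 26 had such a window. The core lay in 8 of 10 leukocyte markers, in 6 of 16 markers of the other 5 classes and in 24.8% of 27457 gene symbols with a window. A match is a description of the letters and not of a bound site. The windows below are those of 3 leukocyte markers that were far lower in DMSO replicate 1 than elsewhere (Lyz2, Cd68, C1qb) and of 2 that were not (Mrc1, Ptprc), each read 5′ to 3′ on the gene's own strand, with the core in capitals. They lie at chr7:54798012-54798261 (minus strand), chr10:54882442-54882691 (minus), chr5:154407828-154408077 (minus), chr17:82157475-82157724 (plus) and chr13:52259747-52259996 (minus).
Lyz2: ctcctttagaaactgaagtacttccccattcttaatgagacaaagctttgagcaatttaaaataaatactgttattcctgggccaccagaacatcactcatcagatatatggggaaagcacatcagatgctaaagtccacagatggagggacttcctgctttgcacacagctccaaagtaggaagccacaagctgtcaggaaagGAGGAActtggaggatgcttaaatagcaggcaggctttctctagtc
Cd68: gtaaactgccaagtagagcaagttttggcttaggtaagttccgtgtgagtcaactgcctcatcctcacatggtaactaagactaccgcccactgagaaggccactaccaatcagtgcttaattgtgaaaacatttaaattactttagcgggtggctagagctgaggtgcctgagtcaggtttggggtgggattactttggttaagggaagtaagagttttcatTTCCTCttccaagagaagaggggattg
C1qb: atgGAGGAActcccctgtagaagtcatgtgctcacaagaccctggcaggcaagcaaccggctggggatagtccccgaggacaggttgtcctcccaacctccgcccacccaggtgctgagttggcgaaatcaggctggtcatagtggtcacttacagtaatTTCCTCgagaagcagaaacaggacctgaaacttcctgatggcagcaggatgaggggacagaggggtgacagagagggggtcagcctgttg
Mrc1: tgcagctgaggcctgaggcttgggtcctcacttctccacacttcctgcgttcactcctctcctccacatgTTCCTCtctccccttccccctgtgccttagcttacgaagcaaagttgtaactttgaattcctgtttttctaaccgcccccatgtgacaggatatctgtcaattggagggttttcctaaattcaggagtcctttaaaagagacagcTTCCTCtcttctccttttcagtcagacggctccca
Ptprc: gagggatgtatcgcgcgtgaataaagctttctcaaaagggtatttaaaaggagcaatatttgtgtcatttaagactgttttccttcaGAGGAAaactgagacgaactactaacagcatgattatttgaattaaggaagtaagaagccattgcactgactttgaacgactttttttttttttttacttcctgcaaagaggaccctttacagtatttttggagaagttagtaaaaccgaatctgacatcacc
All 5 windows printed hold the core. The leukocyte windows without it were those of C1qa and Cd163, which says only that these letters are not in those bases. In Lyz2 it began 46 bases before the start, in Cd68 27 bases before it on the opposite strand.

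Receptor genes that mark macrophages were measured in every library. Csf1r, the receptor for the macrophage growth factor CSF1, was at 25.0, 24.9 and 23.7 CPM in DMSO replicates 1, 2 and 3 and at 24.6, 26.6 and 23.3 CPM in blebbistatin replicates 1, 2 and 3. The mannose receptor gene Mrc1, a mark of resident tissue macrophages, was as even, at 26.8, 29.4 and 26.5 CPM and then 25.9, 26.6 and 28.2 CPM in the same order of libraries. Ptprc, which encodes the pan-leukocyte phosphatase CD45, was at 11.2, 13.8 and 12.5 CPM with DMSO and 13.99, 14.09 and 13.99 CPM with blebbistatin. For these 3 receptors, all 6 libraries lay close together and no library stood out. Adgre1, the F4/80 antigen, was at 13.95, 14.7 and 14.8 CPM with DMSO and at 17.6, 20.7 and 11.7 CPM with blebbistatin, where the treated libraries were the more scattered group.

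Other macrophage genes varied more between libraries. Lyz2, the macrophage lysozyme, was at 14.5, 54.4 and 78.3 CPM in DMSO replicates 1 to 3 and at 74.8, 57.2 and 61.2 CPM in blebbistatin replicates 1 to 3. The lysosomal glycoprotein gene Cd68 was at 5.95, 19.2 and 16.9 CPM and at 17.7, 17.9 and 17.7 CPM. In both genes DMSO replicate 1 alone was low, at 0.243 of the mean of the other 5 libraries for Lyz2 and 0.364 of it for Cd68. The complement C1q chains, which assemble into the recognition unit of the classical pathway, come from the neighbouring genes C1qb, C1qc and C1qa. C1qa was at 3.57, 5.70 and 9.36 CPM with DMSO and 8.99, 5.00 and 8.24 CPM with blebbistatin. C1qb was at 1.07, 2.78 and 4.31 CPM and at 3.95, 3.86 and 5.32 CPM. C1qc was at 0.661, 4.09 and 5.07 CPM and at 4.98, 3.21 and 4.39 CPM. All 3 chains were lowest in DMSO replicate 1, where they stood at 0.525, 0.291 and 0.167 of the mean of the other libraries for C1qa, C1qb and C1qc.

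Aif1, the calcium-binding protein IBA1, was at 1.16, 3.45 and 4.18 CPM with DMSO and 4.04, 2.45 and 1.44 CPM with blebbistatin, and Tyrobp, the adaptor DAP12, at 6.41, 8.53 and 13.8 CPM and 13.7, 6.59 and 10.5 CPM. For Tyrobp DMSO replicate 1 and blebbistatin replicate 2 were the lowest and close together, in an order that turned after TMM scaling. Cd14, the lipopolysaccharide co-receptor, was at 10.98, 14.97 and 12.33 CPM with DMSO and 15.3, 18.4 and 17.2 CPM with blebbistatin, so that the treated libraries lay above the controls. The scavenger receptor gene Cd163 was listed at 0 in DMSO replicate 1, at 0.134 and 0.0486 CPM in DMSO replicates 2 and 3, and at 0.129 to 0.259 CPM with blebbistatin. It is near the floor of 3 reads and was not tested.

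Markers of other leukocytes were at or near 0. The T cell gene Cd3e, the B cell genes Ms4a1 and Cd79b and the cytotoxic granule gene Nkg7 were listed at 0 in all 6 libraries. The neutrophil genes S100a8 and S100a9 reached at most 0.134 and 0.146 CPM in a library, and the mast cell gene Cpa3 0.126 CPM. A count of 0 allows up to 3 reads, or about 0.05 CPM.

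Endothelial markers were present in every library. Flt1 and Kdr encode receptors of vascular endothelial growth factor. Flt1 was at 120, 83.5 and 74.5 CPM with DMSO and 77.1, 82.99 and 82.1 CPM with blebbistatin, the highest value being that of DMSO replicate 1. Kdr was at 21.4, 20.4 and 18.1 CPM and at 16.2, 18.9 and 17.9 CPM. Vwf, the clotting factor that endothelial cells store, was at 38.8, 20.5 and 15.3 CPM with DMSO and 15.5, 22.7 and 24.0 CPM with blebbistatin, again highest in DMSO replicate 1. Egfl7, a matrix protein of vessels, went the other way and was lowest there, at 5.09, 9.34 and 13.1 CPM with DMSO and 13.7, 9.22 and 10.8 CPM with blebbistatin. The vascular cadherin gene Cdh5 was at 13.8, 18.3 and 19.0 CPM and 18.01, 19.65 and 22.4 CPM. Tek and Tie1, the angiopoietin receptor and its partner, kept to 13.6 to 21.5 CPM and 14.3 to 18.6 CPM over the 6 libraries, and the sialomucin gene Emcn to 1.12 to 2.30 CPM.

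The mural markers held the largest differences between libraries in CPM. Pdgfrb, the receptor that recruits pericytes and is also made by fibroblasts, was at 763, 413 and 348 CPM with DMSO and 362, 431 and 408 CPM with blebbistatin. Cspg4, the proteoglycan NG2, was at 582, 357 and 264 CPM and at 259, 315 and 358 CPM. Both stood highest in DMSO replicate 1, at 2.13 and 2.05 times the mean of the other 5 libraries. The other 3 members did not follow. Rgs5, a pericyte regulator of G proteins, was at 2.99, 3.00 and 2.82 CPM with DMSO and 2.60, 3.72 and 2.76 CPM with blebbistatin. Kcnj8 and Abcc9 are neighbouring genes for the pore and the regulatory subunit of a potassium channel of pericytes that cardiomyocytes also express. They were at 2.498 to 4.378 CPM and 56.6 to 78.1 CPM, and in both DMSO replicate 1 was inside the range of the other libraries. Csf1r, separated from Pdgfrb by a single annotated locus in RefSeq, was level in the library where Pdgfrb was highest.

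Epicardial and fibroblast markers were divided in the same manner. Tcf21, a transcription factor of epicardial cells and of the fibroblasts they give rise to, was at 21.6, 41.8 and 52.7 CPM with DMSO and 47.5, 42.9 and 38.6 CPM with blebbistatin. Msln, the mesothelial surface protein mesothelin, was at 3.59, 6.89 and 7.42 CPM and at 8.67, 7.08 and 6.70 CPM. Both were lowest in DMSO replicate 1. Wt1 and Tbx18, transcription factors of the epicardium, were at 9.54 to 13.4 CPM and 24.9 to 34.6 CPM, with DMSO replicate 1 inside the range. Aldh1a2, which makes retinoic acid, was at 29.3, 44.5 and 42.0 CPM and at 42.0, 32.2 and 37.0 CPM, and the uroplakin gene Upk3b at 0.794 to 1.88 CPM. Both Aldh1a2 and Upk3b were also lowest in DMSO replicate 1, so that 4 of the 6 epicardial members were lowest in it and none was highest. Of all genes tested, 35.3% were lowest and 33.7% highest in that library.

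Among the fibroblast members, the collagen receptor gene Ddr2 was at 240, 155 and 134 CPM with DMSO and 127, 154 and 141 CPM with blebbistatin. Pdgfra, the growth factor receptor that marks fibroblasts, was at 174, 133 and 108 CPM and at 114, 135 and 125 CPM. These 2 receptors were highest in DMSO replicate 1, at 1.85 and 1.54 times the mean of the others. Thy1, a surface glycoprotein, was lower there than in the other libraries, at 20.6, 27.6 and 33.7 CPM with DMSO and 33.2, 21.9 and 24.7 CPM with blebbistatin before scaling by TMM factors. The 20 further fibroblast markers measured, collagen and other matrix genes, took 4.65 to 5.38% of all reads in a library. Sums of CPM lean to long and abundant transcripts, so this share is not set against that of another cell type. The glial genes S100b and Sox10 were low, at 0.519 to 1.09 CPM and 0.0632 to 0.778 CPM, the lowest Sox10 value being 4 reads.

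**Figure D1:**
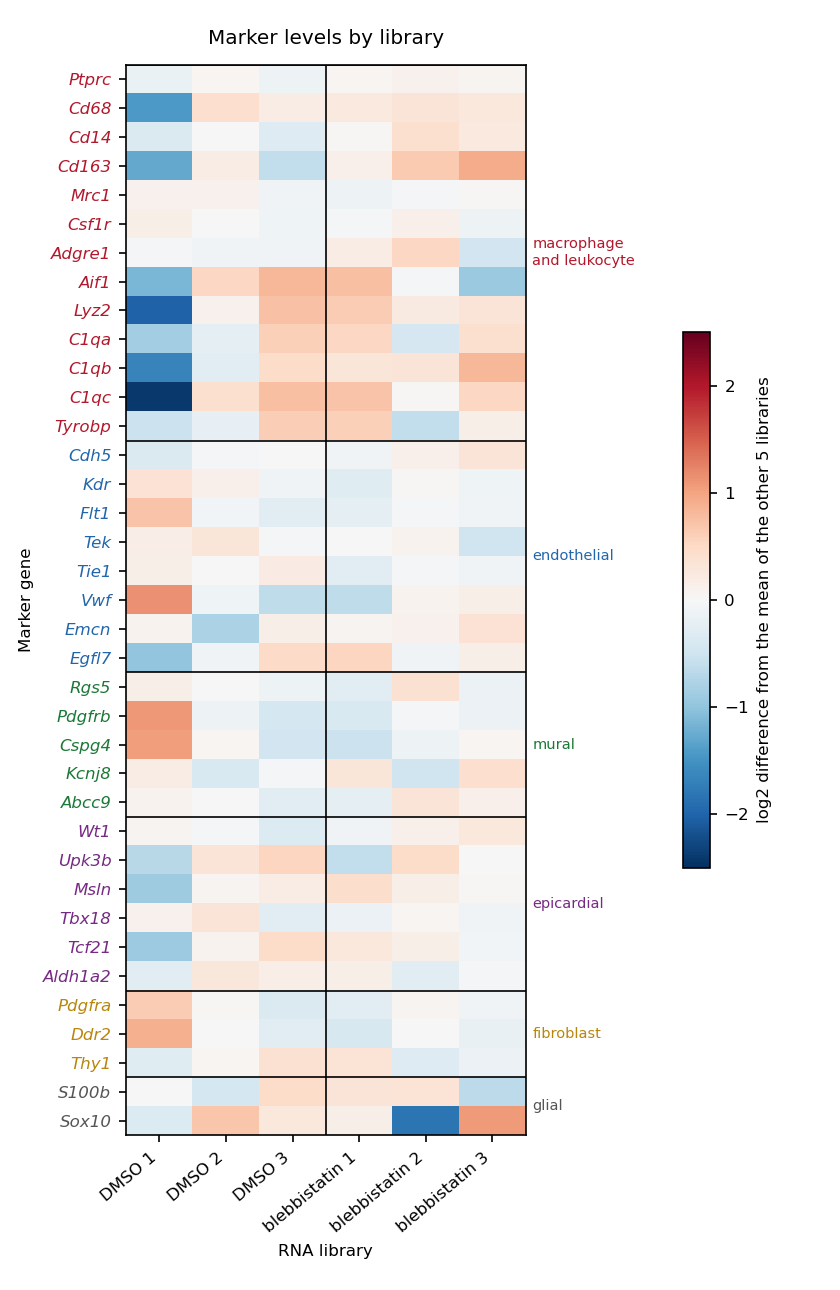
Level of each of the 37 markers (rows, coloured by class) in each library (columns), as the log2 difference from the mean of the other 5 libraries on the log2(CPM divided by a TMM factor + 0.1) scale. DMSO replicate 1 has both the bluest cells (C1qc at -2.41, Lyz2 at -2.02) and the reddest (Vwf at 1.14, Pdgfrb at 1.09), and Cd163 is listed at 0 in it.

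Summed over a class, the 5 libraries other than DMSO replicate 1 were close to each other for leukocyte, endothelial, epicardial and fibroblast markers. They were wider apart for mural and glial markers. Leukocyte markers summed to 121.2 CPM in DMSO replicate 1, 196.2 and 221.9 CPM in DMSO replicates 2 and 3, and 225.8, 202.8 and 203.5 CPM in blebbistatin replicates 1 to 3. Mural markers summed to 1415, 841.3 and 674.9 CPM with DMSO and 686.1, 830.3 and 844.2 CPM with blebbistatin. DMSO replicate 1 was thus below all other libraries for the leukocyte sum and above them for the mural sum. For some classes its place depended on the genes summed. The 14 further mural markers, listed apart from the members, gave 3188 CPM in it and 4071 to 4551 CPM in the others, so that it was lowest there. Most of that sum was Acta2, named after its values were seen, at 1948 against 2753 to 3136 CPM. The 29 further leukocyte markers gave 161.6 against 178.6 to 190.3 CPM, and after TMM scaling 174.2 against 176.4 to 184.7, a smaller gap. For the members it was also below for the epicardial sum (94.49 against 124.5 to 140.6 CPM) and above for the endothelial (235.6 against 175 to 191.2 CPM) and fibroblast sums (434.7 against 274.2 to 316.1 CPM). The glial sum was 0.992 CPM in it against 1.04 to 1.54 CPM, an order that did not hold after TMM scaling (1.07 against 1.047 to 1.505). The 16 further epicardial markers (1038 against 1000 to 1113 CPM) and the 20 further fibroblast markers (53390 against 46480 to 53790 CPM) did not set it apart as deposited. After TMM scaling it was the highest library for both (1119 against at most 1089, and 57530 against at most 53140). Most of this epicardial sum was Ccdc80, at 690 CPM in it against 735.7 to 853.1 CPM. Much of the rest was Tbx20, at 257.5 against 162.6 to 215.9 CPM. These 2 genes were named after their values were seen. As deposited it was also highest for the 27 further endothelial markers (524.8 against 410.8 to 505.7 CPM) and the 13 further glial markers (366.4 against 310.3 to 339.9 CPM). Much of that glial sum was Ncam1, at 242 CPM in it against 142.8 to 180.9 CPM. Pmp22 went the other way, at 73.47 against 101.4 to 105 CPM. Both were named after their values were seen. Per 1000 CPM of the 14 cardiomyocyte markers, the leukocyte sum was 3.40 in DMSO replicate 1 and 6.34 to 7.30 in the rest, and the endothelial sum 6.61 against 5.66 to 6.18. Both ratios lean on Myh7, which held much of the cardiomyocyte sum and was itself highest in DMSO replicate 1. Without Myh7 the cardiomyocyte sum was lowest, not highest, in that library. Lyz2 carried much of the leukocyte difference: without it the sums were 106.7 against 141.8 to 151 CPM.

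**Figure D2:**
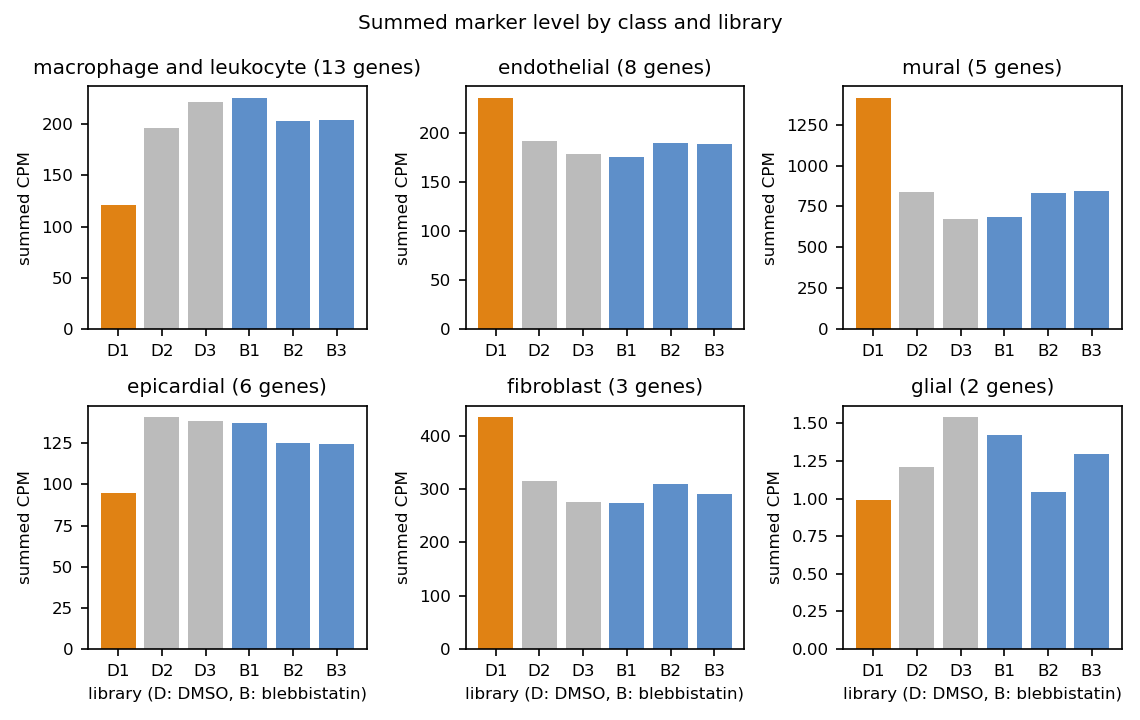
Summed CPM of the members of each class (bars from 0) in DMSO replicates 1 to 3 (D1 to D3) and blebbistatin replicates 1 to 3 (B1 to B3, blue; D2 and D3 are grey). The orange bar, DMSO replicate 1, is the lowest for leukocyte, epicardial and, before TMM scaling, glial markers and the highest for endothelial, mural and fibroblast markers.

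Markers of the same cell type did not move together in DMSO replicate 1. Of the 12 leukocyte markers tested, 8 had their lowest of 6 scaled values in it, beside 35.3% of all genes. The differences of the 12 from the mean of the other 5 libraries ran from -2.41 (C1qc) to 0.149 (Csf1r) on the log2 scale. The 8 endothelial markers ran from -0.978 (Egfl7) to 1.14 (Vwf), the 6 epicardial markers from -0.909 (Tcf21) to 0.117 (Tbx18), the 3 fibroblast markers from -0.305 (Thy1) to 0.89 (Ddr2) and the 5 mural markers from 0.094 (Abcc9) to 1.09 (Pdgfrb). As deposited, which genes were counted changed the place of DMSO replicate 1 for the mural, epicardial, fibroblast and glial sums. For the leukocyte and endothelial sums, members and further markers gave it the same place. The endothelial place leaned on Flt1 and Vwf among the members. Among the further markers it leaned on Flt4, named after its values were seen (137.3 against 55.32 to 79.76 CPM). Of the 26 further endothelial markers tested, 12 were lowest and 5 highest in it, beside 35.3% and 33.7% of all genes. Ratios of marker pairs, picked after the values were seen for how they differed in DMSO replicate 1, describe how markers parted in it and support nothing. Lyz2 over Csf1r was 0.58 in DMSO replicate 1 and 2.15 to 3.30 in the others, and Vwf over Egfl7 was 7.63 against 1.13 to 2.46. Ddr2 over Thy1 was 11.7 against 3.82 to 7. Tyrobp over Ptprc, at 0.575, lay inside the range of the other libraries, 0.468 to 1.10.

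**Figure D3:**
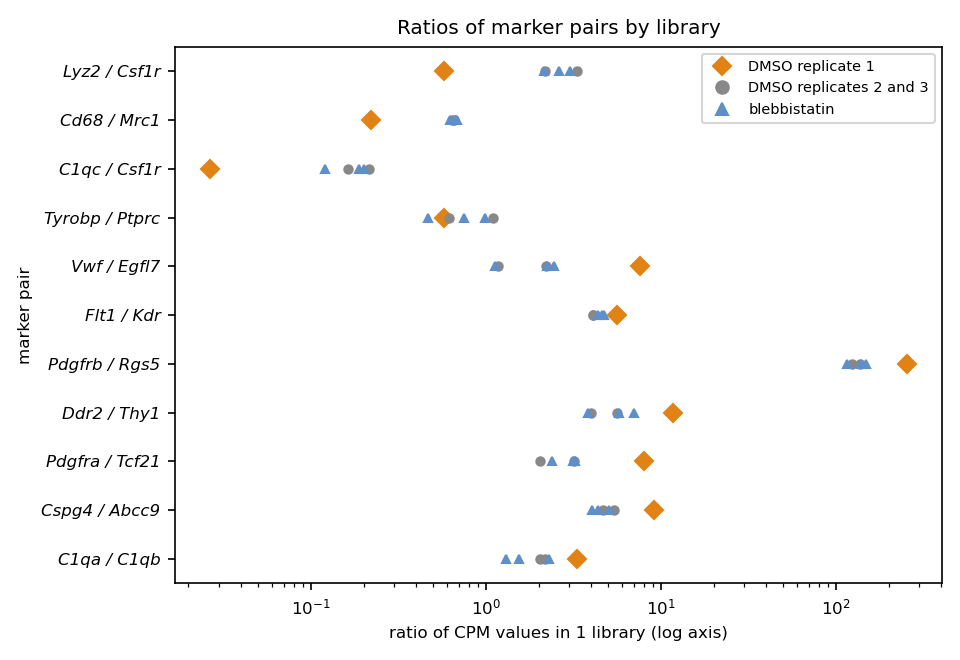
Ratio of the CPM values of 2 markers in each library, on a log axis, to be compared between libraries and not between pairs. The pairs were picked after the values were seen, and Pdgfra over Tcf21 sets a fibroblast against an epicardial marker. DMSO replicate 1 (orange diamonds) is at 0.58 for Lyz2 over Csf1r, where the others are at 2.15 to 3.30, and lies among the others for Tyrobp over Ptprc.

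Over all members, DMSO replicate 1 was the lowest of the 6 libraries for 14 of 36 tested markers (38.9%, against 35.3% of all 15204 genes tested) and the highest for 8 (22.2%, against 33.7%). On the log2 scale it lay below the other 5 by more than their whole range for 7 markers (19.4%, against 12.3% of all genes). These were Lyz2, Cd68, C1qb, C1qc, Egfl7, Msln and Tcf21. On that scale it lay above them by as much for 6 (Flt1, Vwf, Pdgfrb, Cspg4, Pdgfra and Ddr2, 16.7%, against 12%). The share highest in this library was below that of genes at large, and the other 3 shares were above those of genes at large. None of these differences was tested. The part of ribosomal protein and red blood cell genes, which also differed in it, was not tested. Among the other 5 libraries, 30 of the 36 markers kept within a 2-fold range, with a median range of 1.42-fold.

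A second pattern crossed the treatment groups. DMSO replicate 3 and blebbistatin replicate 1, a pair picked after the values were seen, were the 2 highest libraries for 9 markers (25%, against 20.1% of all genes) and the 2 lowest for 10 (27.8%, against 20.5%). Lyz2, C1qa, C1qc, Aif1, Tyrobp, Egfl7, Msln, Tcf21 and Thy1 were the 9 high in this pair. Pdgfrb, Cspg4, Abcc9, Flt1, Vwf, Pdgfra, Ddr2, Mrc1, Wt1 and Tbx18 were the 10 low in it. The sum of ribosomal protein genes was also highest in these libraries, at 32760 and 32540 CPM, against 15010 to 26780 CPM in the other 4. Its part in the marker values was not tested.

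No marker passed the test for a change after blebbistatin. Limma called 0 of the 36 tested markers at an adjusted p under 0.05 over all genes (3 of 15204 genes, 0.0197%, were called), and 0 of 36 reached an unadjusted p under 0.05, against 1.52% of all genes (0.743% higher and 0.776% lower). By class, the counts of positive and negative log2 fold changes were 9 and 3 for leukocyte, 3 and 5 for endothelial, 2 and 3 for mural, 3 and 3 for epicardial, 0 and 3 for fibroblast and 0 and 2 for glial markers. Over all genes 50.7% were positive. The class medians were 0.204, -0.208, -0.0129, 0.0429, -0.165 and -0.171 in that order, beside 0.00403 over all genes. Without DMSO replicate 1 they were -0.0188, 0.024, 0.0799, -0.0975, -0.0353 and -0.289, with 0 of 36 markers called (6 of 15204 genes, 0.0395%) and 0 at an unadjusted p under 0.05 (1.58% of all genes). The leukocyte median was thus positive with that control library and below 0 without it. Counts of positive and negative changes without it were 5 and 7, 5 and 3, 5 and 0, 2 and 4, 1 and 2, and 0 and 2, in the same order of classes.

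The largest fold changes over all 6 libraries were those of genes low in DMSO replicate 1. The DMSO mean of C1qb was 2.71 ± 1.53 CPM and its blebbistatin mean 4.31 ± 0.806 CPM (SD, n = 3 each, TMM-scaled), a log2 fold change of 0.81 ± 0.44 (SE, limma adjusted p = 0.991). Without that library its log2 fold change was 0.317 ± 0.266. Lyz2 was at 48.6 ± 30.8 and 63.5 ± 8.11 CPM, with 0.654 ± 0.53 over all libraries and -0.0234 ± 0.176 without DMSO replicate 1. C1qc went from 0.698 ± 0.653 to -0.134 ± 0.244 and Cd68 from 0.467 ± 0.38 to -0.0181 ± 0.136. On the negative side, log2 fold changes were -0.343 ± 0.315 for Cspg4, -0.339 ± 0.65 for Sox10, -0.325 ± 0.253 for Ddr2 and -0.301 ± 0.312 for Pdgfrb. Without the library these were 0.00892 ± 0.182, -0.567 ± 0.705, -0.0353 ± 0.135 and 0.0799 ± 0.135 in that order. Sox10, of few reads, thus moved away from 0, as did Aif1 (from -0.112 ± 0.518 to -0.616 ± 0.392).

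The treated and control libraries did not overlap for 2 markers. Cd14 had all 3 treated libraries above all 3 controls (1 of 36 markers, against 3.24% of all genes), at 12.9 ± 1.65 and 16.7 ± 1.81 CPM (SD, n = 3 each, TMM-scaled). In limma this was 0.376 ± 0.163 (SE) as a log2 fold change, adjusted p = 0.991, and 0.318 ± 0.164 once DMSO replicate 1 was left out. Tie1 had all 3 treated libraries below the controls on the TMM scale (1 of 36, against 2.89% of all genes), at 17.3 ± 0.981 and 15 ± 1.00 CPM, and limma gave it -0.209 ± 0.137 on the log2 scale, adjusted p = 0.991. Neither share exceeds that of genes at large.

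How much change could have gone unseen differed by gene. The standard errors of the log2 fold changes ran from 0.124 to 0.653, with a median of 0.262, and from 0.116 to 0.705, with a median of 0.179, without DMSO replicate 1. For Csf1r the 95% interval ran from -0.332 to 0.288 and for Mrc1 from -0.362 to 0.217, so that a log2 fold change of 1, a doubling, lay outside both. For 11 of 36 markers the interval reached a doubling or its inverse (a log2 fold change of 1 or -1), among them C1qc (-0.83 to 2.22) and Sox10 (-1.86 to 1.18). Without DMSO replicate 1 that number was 5.

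**Figure D4:**
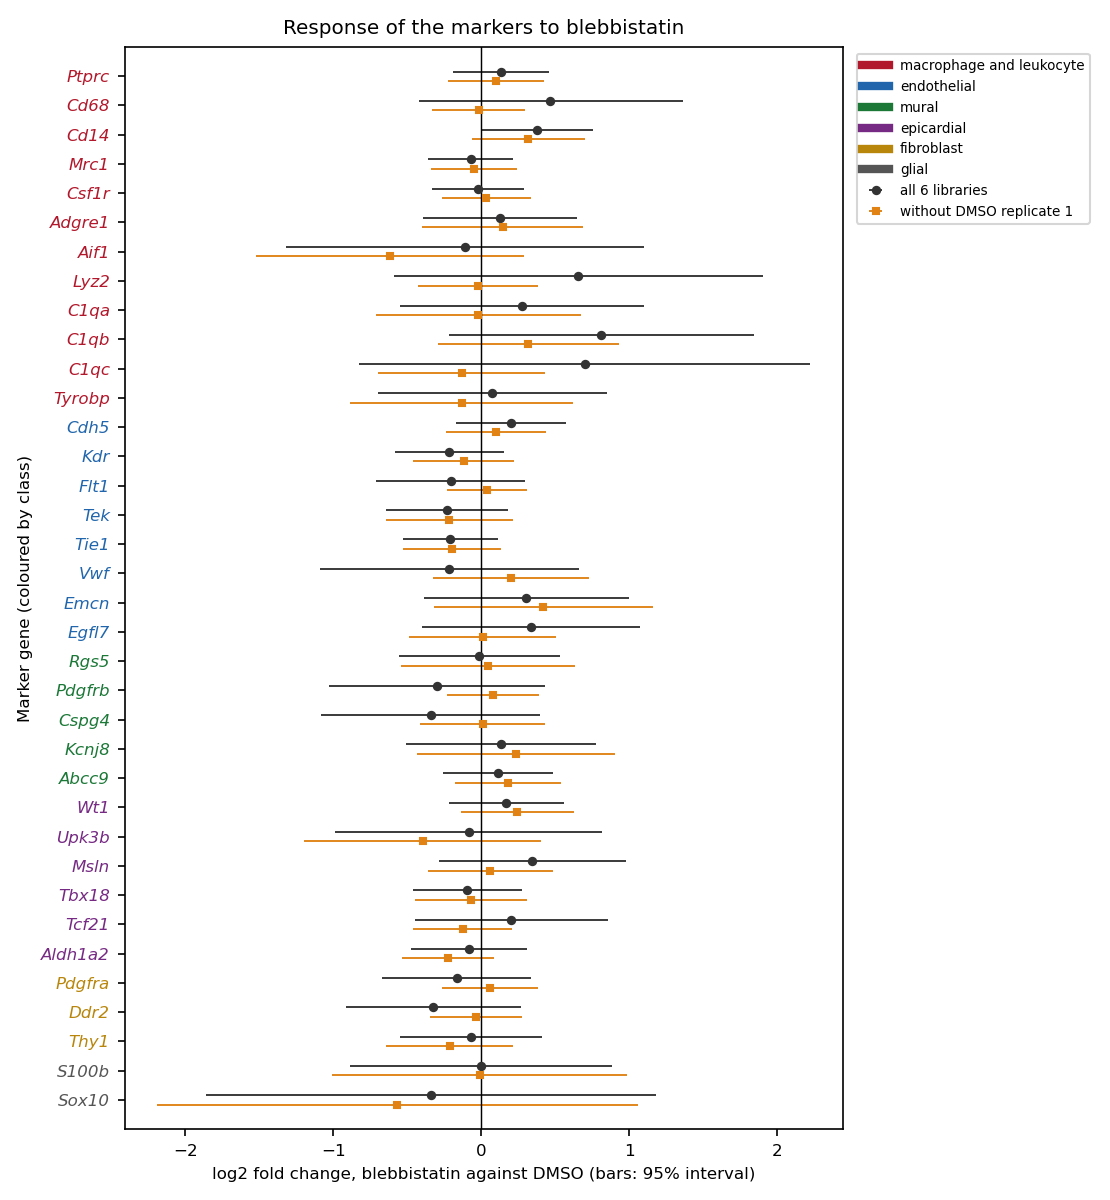
Log2 fold change of each of the 36 tested markers, blebbistatin against DMSO, with its 95% interval, over all 6 libraries (dark circles) and without DMSO replicate 1 (orange squares), names coloured by class. All 36 intervals over 6 libraries hold 0, and those of C1qc, Lyz2, Cd68, Pdgfrb and Cspg4 shrink and move toward 0 without that library.

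Further markers of the same 6 cell types were examined in the same fit. Of 124 such genes, 119 were measured and 100 tested, and limma called 0 of them after blebbistatin, with 2 of 100 at an unadjusted p under 0.05, beside 1.52% of all genes. These were the endothelial genes Icam2, an adhesion molecule, and Cd93, a surface lectin-like receptor. Icam2 was at 0.794, 1.56 and 1.59 CPM with DMSO and 2.02, 2.62 and 2.40 CPM with blebbistatin (log2 fold change 0.808 ± 0.308, SE, limma adjusted p = 0.991). Cd93 was at 30.6, 23.6 and 22.7 CPM and at 22.1, 16.8 and 18.1 CPM (-0.463 ± 0.192, limma adjusted p = 0.991). Each had groups that did not overlap, and each had its extreme value in DMSO replicate 1, the lowest for Icam2 and the highest for Cd93. Of the 100 tested, 4 had all treated libraries above all controls and 5 had them below, beside 3.24% and 2.89% of all genes. Without that library neither reached an unadjusted p under 0.05 in limma (Icam2 0.547 ± 0.266, Cd93 -0.286 ± 0.149). The endothelial gene Sox17 (0.709 ± 0.299) and the epicardial gene Gpm6a (0.388 ± 0.158), named after their values were seen, then did, again 2 of 100 beside 1.58% of all genes, with adjusted p = 1 in limma.

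In the other classes the genes with the lowest p did not pass either. Among them were Rac2 (0.373 ± 0.217) and Irf8 (0.398 ± 0.264) of leukocytes, Cnn1 (0.349 ± 0.236) and Myh11 (-0.321 ± 0.225) of mural cells, Cldn15 (-0.481 ± 0.226) and Krt8 (-0.337 ± 0.172) of the epicardium, Fbln2 (0.214 ± 0.158) and Htra3 (0.199 ± 0.171) of fibroblasts and L1cam (0.544 ± 0.358) of glia, as log2 fold changes with SE. Without DMSO replicate 1 these were 0.176 for Rac2, 0.257 for Irf8, 0.0786 for Cnn1, -0.0653 for Myh11, -0.451 for Cldn15, -0.214 for Krt8, 0.0799 for Fbln2, 0.195 for Htra3 and 0.229 for L1cam. The 2 mural genes encode smooth muscle contractile proteins and again parted in DMSO replicate 1, where Cnn1 was at 122.1 against 217.3 to 266.4 CPM and Myh11 at 284 against 168.3 to 198 CPM. The medians of the further markers were 0.0452, -0.0112, 0.0618, -0.19, -0.0229 and 0.0782 for leukocyte, endothelial, mural, epicardial, fibroblast and glial genes. Without DMSO replicate 1 they were 0.000825, -0.0312, 0.00208, -0.0588, -0.0185 and 0.00668 in the same order.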

How the data were processed

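Expression came as CPM, computed by the authors, with 28909 genes and 6 RNA libraries in a single table whose columns share a total. Per the submitters' processing notes, Trim Galore, HISAT2 2.1.0, BWA, StringTie 1.3.4, MACS2 2.1.0, edgeR 3.20.9 and build rn6 were named, in no stated order, for RNA and chromatin samples together, and which of them made this table is not given in the sources used here, nor are strand and annotation. In each library 99.1 to 99.2% of values above 0 were whole multiples (within 0.02) of a step, taken as 1 read, so whole reads were not recovered for all genes and no count test was run. The 6 chromatin and 6 input samples were not analysed here.

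Genes with at least 0.162 CPM (10 reads) in at least 3 libraries were tested, 15204 of 28909, with limma 3.58.1 in R 4.3.3 (trend and robust, two-sided, Benjamini-Hochberg) on log2(CPM divided by an unweighted TMM factor + 0.1), which understates changes of low genes. Factors ran from 0.928 to 1.03. Of the members, 36 passed. Single-library values are deposited CPM, whereas means ± SD, ranks and comparisons of ranges use scaled CPM. Whether a library lay outside the others by more than their range was judged on the log2 scale of the fit. The steps were tested on simulated data in which no library stood apart, so that test does not measure what could be detected here. The members and lists were chosen with earlier results of these data known. All members were named, and for further markers the 2 per class with the lowest p, beside leukocyte markers at or near 0, chosen after their values were seen, as were the ratio pairs. A gene that this rule names is not reported here. Of the members, 8 overlap another annotated gene in RefSeq (Mrc1, Adgre1, Flt1, Tie1, Egfl7, Cspg4, Upk3b and S100b) and are uncertain, as is Lyz2, of a multigene family. No 2 libraries were duplicates (chi-square per degree of freedom at least 35.7).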

Additional observations from a re-analysis of the deposited data

How the results depend on the processing

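The count of 0 changed markers, and of 0 changed further markers, was also 0 with RLE, library-total or upper-quartile scaling, without a filter, with at least 1 CPM in 3 libraries, with pseudocounts of 0.5 or 1 CPM, with robust=FALSE, with the replicate block and without each library in turn, and for the members at an adjusted p under 0.01 or 0.1. With CPM as deposited DMSO replicate 1 was the lowest library for 16 markers in place of 14. Leaving out each library, the class medians ran from -0.0188 to 0.339 (leukocyte), -0.244 to 0.024 (endothelial), -0.177 to 0.0799 (mural), -0.0974 to 0.143 (epicardial), -0.353 to -0.0353 (fibroblast) and -0.31 to 0.0968 (glial). Of the log2 fold changes of single genes under the alternatives, 678 kept their sign and side of the threshold and 40 changed sign. With a library left out these were Cd68 (-0.0181 to 0.757), Csf1r (-0.0839 to 0.0346), Adgre1 (-0.0614 to 0.361), Aif1 (-0.616 to 0.247), Lyz2 (-0.0234 to 1.12), C1qa (-0.0196 to 0.597), C1qc (-0.134 to 1.19), Tyrobp (-0.158 to 0.346), Flt1 (-0.374 to 0.0382), Vwf (-0.535 to 0.202), Rgs5 (-0.177 to 0.092), Pdgfrb (-0.555 to 0.0799), Cspg4 (-0.629 to 0.00892), Kcnj8 (-0.0109 to 0.369), Upk3b (-0.396 to 0.149), Tbx18 (-0.228 to 0.0137), Tcf21 (-0.125 to 0.448), Aldh1a2 (-0.226 to 0.0106), Pdgfra (-0.353 to 0.0573), Thy1 (-0.232 to 0.0712), S100b (-0.184 to 0.271), Sox10 (-0.866 to 0.335). With library-total scaling Csf1r was at 0.0169, Rgs5 at 0.0248 and S100b at 0.0318, with upper-quartile scaling Rgs5 at 0.000824 and S100b at 0.0104, and S100b was at 0.00285 and 0.00374 with pseudocounts of 0.5 and 1 CPM. The cause was not tested. For libraries with the same number, correlations of the deviations were -0.29, 0.054 and -0.092, so the numbers were not used as pairs, and the block gave 0 changed markers. Depth limits Cd163, S100b and Sox10, and 7 tested markers had a library under 100 reads.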

Other observations

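Markers of cells that no class above covers were also measured. Of 15 listed red blood cell genes, 8 were matched and 6 tested. They summed to 185.8 CPM in DMSO replicate 1 and to 70.49, 69.88, 69.26, 69.21 and 60.72 CPM in DMSO replicates 2 and 3 and blebbistatin replicates 1, 2 and 3. Their median log2 fold change was -0.593 over all libraries, with 6 of 6 negative and 0 called by limma (0 at an unadjusted p under 0.05), and -0.0708 without DMSO replicate 1. Of the 8, 2 globin genes were listed at 0 in all 6 libraries.

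Of 100 further markers of the 6 classes tested, 37 had their lowest and 25 their highest value in DMSO replicate 1, where 35.3% and 33.7% of all genes had theirs. By more than the range of the other 5 libraries on the log2 scale, 14 lay below and 10 above, beside 12.3% and 12% of all genes. Of the 14 cardiomyocyte markers, 7 were lowest and 5 highest in it. On the log2 scale, 4 were below and 4 above by more than the range of the others.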
